A study of Homo sapiens with 66 samples.

Results

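The set described here is 10 transcripts that do not code for protein: NEAT1, MALAT1, MEG3, PVT1, GAS5, SNHG1, SNHG15, MIR155HG, MIR22HG and MIR23AHG. They were chosen by symbol and are 10 of the 57992 genes counted. RNA was sequenced from 11 established human lines of acute myeloid leukemia (THP-1, OCI-AML3, OCI-AML2, MV-4-11, MOLM-13, NOMO-1, NB-4, KASUMI-1, HL-60, MONO-MAC-6 and F-36P), each either left in medium or given etoposide, a topoisomerase II poison, for 24 hours at that line's own IC50. Each of the 22 groups held 3 libraries, which makes 66 in all. RNA came from pooled wells of 1 culture line each, so a cell line stands for 1 leukemia, and the concentration differed between lines. The study set aside the etoposide-treated OCI-AML2 libraries after quality control of the raw reads, and this line is therefore reported apart from the other 10.

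Long noncoding RNAs of this kind act as RNA or carry smaller RNAs inside them. NEAT1 is the scaffold of the paraspeckle, a nuclear body, and MALAT1 is retained in nuclear speckles, where splicing factors gather. GAS5, SNHG1 and SNHG15 are host transcripts whose introns release small nucleolar RNAs (snoRNAs), which guide chemical modification of ribosomal RNA, while the spliced remainder is translated little and is cleared by nonsense-mediated decay. The microRNA host transcripts MIR155HG, MIR22HG and MIR23AHG are cut in the nucleus by DROSHA, so that a microRNA and an intact host transcript are alternative products of 1 precursor. MEG3 is an imprinted transcript, and PVT1 lies beside the oncogene MYC. Libraries were made from polyadenylated RNA, and mature MALAT1 and the long form of NEAT1 end in a triple helix in place of a poly(A) tail, so their counts cover only what that selection retained. Mature microRNAs and snoRNAs were not measured.

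The mature microRNAs are shown because they are what the 3 microRNA host transcripts carry. Their sequences and positions are those of RefSeq on GRCh38.p14, and capitals mark the seed, bases 2 to 8, by which a microRNA pairs with its targets. The 5 seeds are all different, so no 2 of them form a seed family.
hsa-miR-155-5p: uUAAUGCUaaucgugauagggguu
hsa-miR-22-3p: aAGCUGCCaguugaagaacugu
hsa-miR-23a-3p: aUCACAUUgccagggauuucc
hsa-miR-27a-3p: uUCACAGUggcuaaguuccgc
hsa-miR-24-3p: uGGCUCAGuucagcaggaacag
The first lies at chr21:25573983-25574006 on the plus strand, within an exon of both annotated MIR155HG transcripts. hsa-miR-22-3p lies at chr17:1713914-1713935 on the minus strand, in an exon of 30 of 32 annotated MIR22HG transcripts. The other 3 come from the single annotated MIR23AHG transcript, within its exon sequence on the minus strand of chromosome 19, at chr19:13836595-13836615 (miR-23a-3p), chr19:13836447-13836467 (miR-27a-3p) and chr19:13836289-13836310 (miR-24-3p). The 3 microRNAs of MIR23AHG, at these positions, therefore share 1 host level in these data. Other loci that may carry the same mature sequences were not looked at.

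Reads on genes ranged from 17997404 to 24101670 per library (median 20241014). Levels are given as CPM, read counts scaled to the library's reads on genes after TMM normalisation. They were scaled over the 33 untreated libraries where lines are compared and within a line where treatment is compared. CPM does not account for transcript length, so levels are compared between lines and not between transcripts. A count of 0 in all 3 libraries of a group allows up to 0.0426 to 0.0528 CPM, which covers counting error only. SPI1, a transcription factor of the myeloid lineage, was at 107 to 203 CPM in all 11 untreated lines. Among 8 markers of other lineages, the summed level was 1.07 to 299 CPM, of which PECAM1 was the largest part except in NOMO-1, with 156 CPM of the T cell gene CD3D, and KASUMI-1, with 81.9 CPM of the epithelial gene EPCAM. The share of mitochondrially encoded mRNA was 3.16% to 5.93% in untreated and 3.27% to 6.43% in treated libraries.

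Basal levels of 9 transcripts could be tested between the 11 untreated lines, and all 9 differed at an adjusted p below 0.05 (edgeR quasi-likelihood F-test, Benjamini-Hochberg adjustment over all genes). That is also true of 99.4% of the 18130 genes tested, so the test does not set these transcripts apart, and their levels are given as a description. Both MEG3 and MIR155HG were present in some lines and at or near 0 in others. MIR22HG was at or near 0 in all. Among the 7 found in every line SNHG1 varied least, with a ratio of highest to lowest line of 2.32, and NEAT1 most, with a ratio of 8.62.

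NEAT1, at chr11:65422774-65445540 on the plus strand (GRCh38, as are all gene positions here), was highest in HL-60, where the 3 untreated libraries had a mean of 901 ± 124 CPM (SD, n = 3). It followed in MONO-MAC-6 at 418 ± 18.5 CPM and was lowest in OCI-AML3 and OCI-AML2, at 129 ± 12.002 and 105 ± 13.9 CPM. HL-60 stood clear of the next line, and 5 of the 10 pairs of neighbours in the order overlapped. MALAT1 lies on the same strand of the same chromosome, at chr11:65497640-65508073. Its order was another one: F-36P was highest at 408 ± 122 CPM, with a wide spread between libraries, KASUMI-1 was at 252 ± 40.9 CPM, and MV-4-11 and OCI-AML2 were lowest at 70.0 ± 6.60 and 68.9 ± 3.68 CPM. Ranges overlapped in 7 of 10 neighbouring pairs, F-36P with KASUMI-1 included.

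MEG3, at chr14:100779410-100861031 on the plus strand, was found in F-36P alone among these lines. The 3 untreated F-36P libraries held 12060, 11004 and 11681 MEG3 reads, or 620 ± 44.6 CPM. The other 60 libraries, treated and untreated, held 19 MEG3 reads between them and at most 4 each. In HL-60, KASUMI-1, MOLM-13, MV-4-11, OCI-AML2 and THP-1 all untreated libraries were at 0, and F-36P was at least 12052-fold higher than the limit of 3 reads over the HL-60 group. MEG8 and MEG9, noncoding neighbours in the same imprinted domain, also passed the filter on low counts in F-36P only, at 8.26 ± 0.852 and 6.11 ± 0.940 CPM.

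PVT1, at chr8:127794526-128187101 on the plus strand, was best separated between lines: 7 of 10 neighbouring pairs did not overlap. MOLM-13 was highest at 54.5 ± 1.69 CPM, followed by F-36P at 40.6 ± 3.15 CPM and OCI-AML2 at 32.6 ± 1.07 CPM. HL-60, NB-4, NOMO-1 and THP-1 overlapped each with the next at 16.5 to 18.7 CPM, and MONO-MAC-6 was lowest at 8.93 ± 0.364 CPM.

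Among the snoRNA hosts, GAS5 (chr1:173858559-173868882, minus strand) was highest in KASUMI-1 at 648 ± 7.86 CPM and lowest in MONO-MAC-6 at 175 ± 4.01 CPM. SNHG1 (chr11:62851978-62855953, minus strand) was led by 4 lines whose ranges overlapped in order, HL-60, KASUMI-1, F-36P and NB-4, at 334 to 357 CPM. THP-1 was lowest at 154 ± 3.86 CPM. SNHG15 (chr7:44983019-44986961, minus strand) was highest in NB-4 at 173 ± 12.3 CPM and KASUMI-1 at 168 ± 7.09 CPM, which overlapped, and lowest in THP-1 at 39.2 ± 2.96 CPM. KASUMI-1 was thus among the 2 highest lines for all 3 snoRNA hosts.

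MIR155HG, at chr21:25561810-25575168 on the plus strand, had no read in any untreated library of F-36P or HL-60. MOLM-13 was highest at 43.9 ± 2.34 CPM and overlapped with THP-1 at 38.8 ± 10.7 CPM, whose libraries spread widely. MOLM-13 was at least 853-fold above the limit of 3 reads over the HL-60 group, and NB-4, the lowest of the 9 lines that expressed it at 7.65 ± 1.33 CPM, at least 148.5-fold. MIR23AHG, at chr19:13823880-13842928 on the minus strand, was found in every line, highest in MONO-MAC-6 at 22.8 ± 3.10 CPM and lowest in F-36P at 2.96 ± 0.729 CPM. Both of these stood clear of their neighbours, while the lines from OCI-AML3 down to OCI-AML2 overlapped each with the next. MIR22HG, at chr17:1711447-1717174 on the minus strand, had 100 reads over all 66 libraries, none in 27 of them and at most 10 in any. It passed the filter in no line and has no test below. The gene TLCD2, which neighbours it on the same strand, had 33 reads in all, and whether reads shared by overlapping gene models were dropped in counting was not tested.

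**Figure D1:**
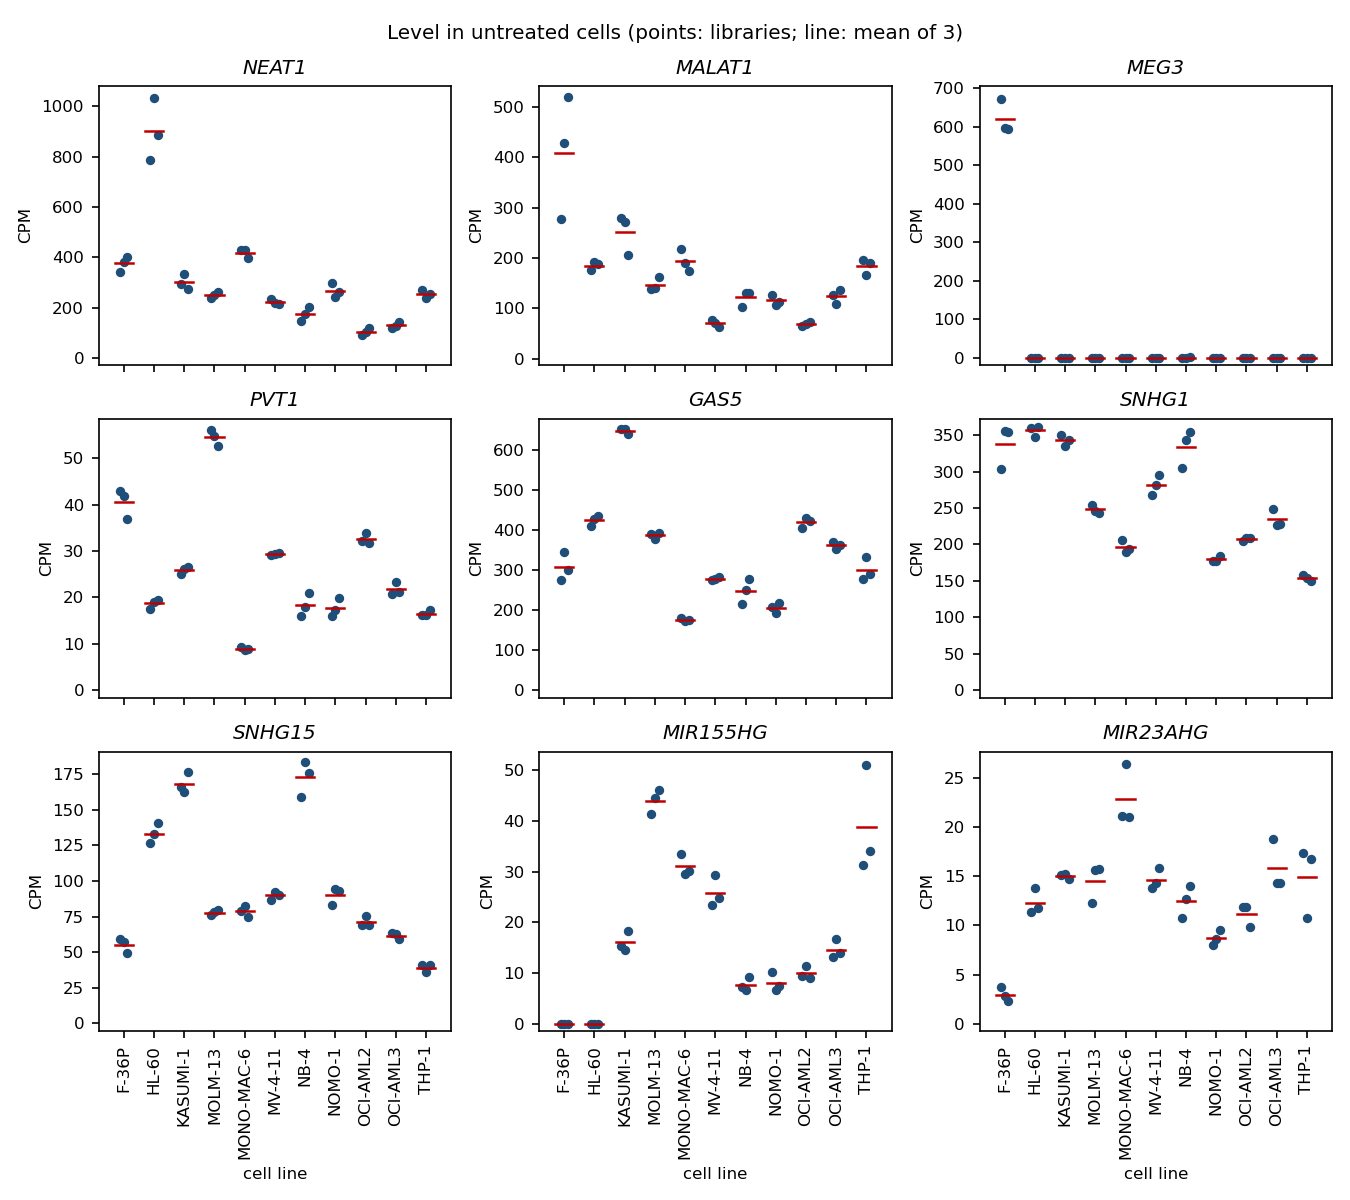
Level of 9 transcripts in untreated cells. Each panel shows CPM (linear axis) in 11 cell lines, with a point for each of 3 libraries and a line at their mean; MEG3 is at 620 CPM in F-36P and near 0 elsewhere, and MIR155HG is at 0 in F-36P and HL-60.

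Promoter sequence is shown for MEG3 and MIR155HG, the 2 transcripts that were present in some lines and at 0 reads in others. Each window holds 250 bases before and 50 bases after a RefSeq start on GRCh38.p14, and capitals mark TATAAA, the TATA box, and TGACGTCA, the cyclic AMP response element.
MEG3: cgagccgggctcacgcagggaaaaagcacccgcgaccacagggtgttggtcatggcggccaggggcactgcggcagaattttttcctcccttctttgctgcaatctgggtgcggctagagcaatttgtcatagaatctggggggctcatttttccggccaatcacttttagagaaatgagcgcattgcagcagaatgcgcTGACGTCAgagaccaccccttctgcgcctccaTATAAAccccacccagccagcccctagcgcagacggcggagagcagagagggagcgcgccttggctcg
MIR155HG: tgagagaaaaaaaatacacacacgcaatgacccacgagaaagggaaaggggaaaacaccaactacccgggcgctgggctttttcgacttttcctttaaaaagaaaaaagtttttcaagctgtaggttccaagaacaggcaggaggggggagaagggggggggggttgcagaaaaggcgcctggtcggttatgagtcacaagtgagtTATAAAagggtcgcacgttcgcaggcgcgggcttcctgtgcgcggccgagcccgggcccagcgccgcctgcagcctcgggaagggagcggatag
The MEG3 window is chr14:100825858-100826157 and the MIR155HG window chr21:25561895-25562194, both on the plus strand. TATAAA begins 18 bases before the MEG3 start and 44 bases before the MIR155HG start. On either strand it occurred in 11.5% of the 35116 windows of the table, and among the transcripts of this set it was found in windows of MALAT1, MEG3, MIR155HG and SNHG1. TGACGTCA reads the same on both strands, occurred in 1.85% of windows and, within the set, in those of MEG3 only, where it begins 50 bases before the start shown. CACGTG, the E-box, was in 7.26% of windows and in none of the 10 windows that 7 of the transcripts have. NEAT1, PVT1 and SNHG15 have no window there. These matches describe letters in a window and do not show binding.

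Etoposide was compared with medium in each line by edgeR's quasi-likelihood test, and a transcript is said to have risen or fallen where its adjusted p was below 0.05 over all genes tested in that line. The filter on low counts was passed by 9 transcripts in at least 1 of the 10 lines, 7 of them in all 10, which gave 79 tests. Of these, 28 rose and 25 fell, where 27.7% of all gene-by-line tests rose and 24.4% fell. Those changed over 2-fold as well were 4 that rose and 7 that fell, against 11.1% and 3.96% of all tests. The 4 were NEAT1 and MALAT1 in OCI-AML3, GAS5 in NB-4 and MIR23AHG in F-36P. The 7 were SNHG15 in KASUMI-1, MONO-MAC-6 and F-36P, PVT1 in the first 2 of these lines, and MIR155HG and MIR23AHG in THP-1. Myeloid markers rose in 26 of 63 tests and fell in 15. Markers of other lineages rose in 31 of 40 tests and fell in 2. Among them COL1A1 rose in 7 lines and fell in none, and PECAM1 rose in 8 and fell in 1. Erythroid markers fell in 19 of 32 tests and rose in 4. Of these falls 10 were those of TFRC, which fell in all 10 lines, and 7 were in F-36P, TFRC included. The part of these markers in the results was not tested. In bulk RNA, fewer cells that express a transcript and less of it per cell cannot be told apart. Libraries of 1 group are described as biological replicates, and the p-values measure the spread between them.

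**Figure D2:**
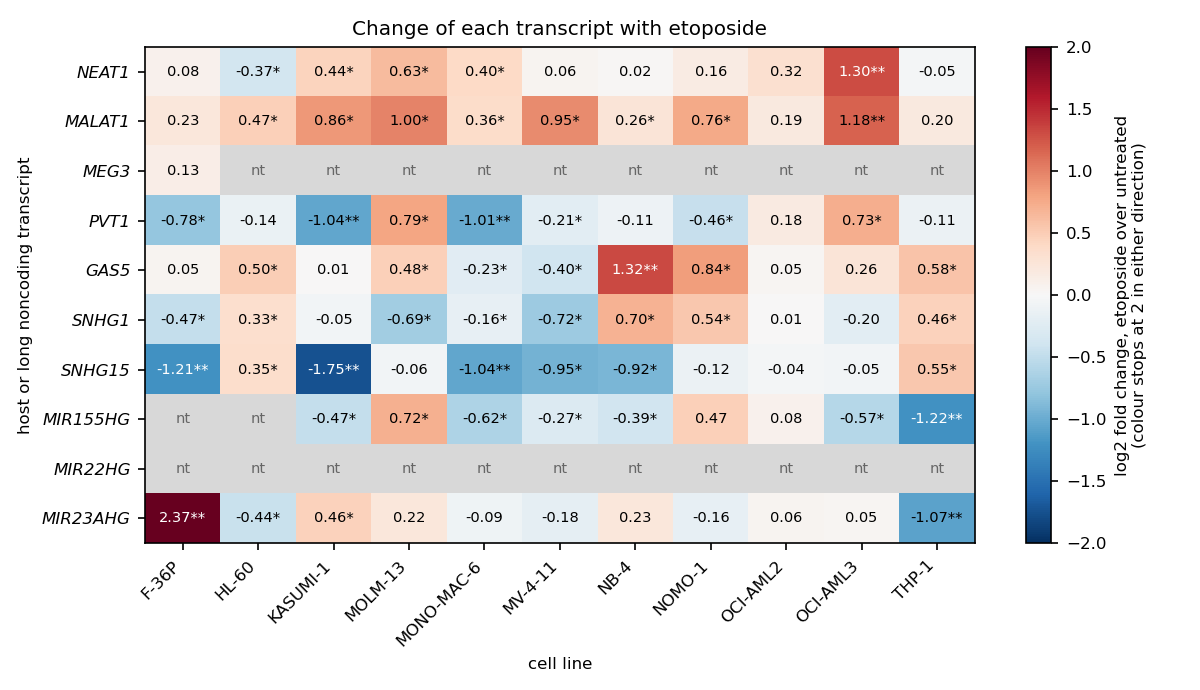
Change of the 10 transcripts with etoposide in 11 cell lines. Colour and number give the log2 fold change, etoposide over untreated (red higher, blue lower), 1 asterisk marks an adjusted p below 0.05, 2 asterisks a change of over 2-fold as well, and nt a transcript not tested for low counts. MALAT1 is red in every line, SNHG15 ranges from -1.75 in KASUMI-1 to 0.55 in THP-1, and no value in OCI-AML2 has an asterisk.

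MALAT1 was higher after etoposide in 8 of 10 lines and in none lower. Among the 10588 genes tested in all 10 lines, 6.63% were higher in at least 8, a count chosen after the values were seen. In OCI-AML3 the untreated libraries held 127, 107 and 140 CPM and the treated ones 322, 329 and 195 CPM. All 3 treated libraries were above all untreated ones, although the last of them by less, and the log2 fold change was 1.18 ± 0.19 (SE, n = 3 per group, edgeR adjusted p = 0.00163). In MOLM-13 levels went from 132, 135 and 156 CPM to 344, 235 and 266 CPM, a log2 fold change of 1.00 ± 0.13 that was just below the 2-fold limit. MV-4-11 went from 80.6, 76.6 and 67.2 CPM to 158, 145 and 131 CPM (log2 fold change 0.95 ± 0.07, edgeR adjusted p = 3.27e-10), with the groups far apart. KASUMI-1 and NOMO-1 rose by 0.86 ± 0.14 and 0.76 ± 0.16 on the log2 scale, and HL-60, MONO-MAC-6 and NB-4 by 0.47 ± 0.10, 0.36 ± 0.07 and 0.26 ± 0.10.

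The groups overlapped for MALAT1 in F-36P, where untreated libraries alone ran from 281 to 569 CPM, and in THP-1. Their log2 fold changes of 0.23 ± 0.23 and 0.20 ± 0.15 did not pass the test, although F-36P did without replicate 3 (0.56, adjusted p = 0.00639) and THP-1 without replicate 2 (0.31, adjusted p = 0.0441). Without replicate 1 of both groups the NB-4 change was 0.12 (adjusted p = 0.256), and without replicate 2 the OCI-AML3 change was 0.95, below 2-fold. In 1 fit of all 60 libraries NB-4 (0.30, adjusted p = 0.169) and MONO-MAC-6 (0.36, adjusted p = 0.106) did not pass. The log2 change remained positive in all 10 lines when libraries were scaled by library size alone or by RLE. The share of mitochondrially encoded mRNA in raw reads on genes was also higher in all treated than in all untreated libraries of OCI-AML3, MV-4-11, KASUMI-1, MONO-MAC-6 and MOLM-13, 5 lines in which MALAT1 rose. After TMM, as used for MALAT1, the median log2 fold change of these mRNAs was -0.10 in KASUMI-1. It was 0.19 to 0.30 in the others of these lines. The raw share overlapped in the other 5, which include HL-60, NB-4 and NOMO-1, where MALAT1 rose too, and its part in the MALAT1 values was not tested.

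NEAT1 rose in 4 lines, fell in 1 and did not pass in 5. OCI-AML3 changed most, from 120, 124 and 146 CPM to 362, 342 and 256 CPM, a 2.46-fold increase (log2 fold change 1.30 ± 0.13, edgeR adjusted p = 0.00016) with no overlap. MOLM-13 rose by 0.63 ± 0.12 on the log2 scale, KASUMI-1 by 0.44 ± 0.09 and MONO-MAC-6 by 0.40 ± 0.05. In HL-60, the line with the highest basal NEAT1, levels went from 844, 1105 and 950 CPM to 809, 744 and 697 CPM, a log2 fold change of -0.37 ± 0.10 (edgeR adjusted p = 0.0146). Every treated HL-60 library was below every untreated one, but the call was lost without replicate 2 (-0.24, adjusted p = 0.107), without replicate 3 (-0.33, adjusted p = 0.112) and with library size alone (-0.26, adjusted p = 0.0675). Of the 5 lines that did not pass, NOMO-1 did without replicate 1 (0.29, adjusted p = 0.00834), and F-36P and MV-4-11 did with library size alone (0.33 and 0.19, adjusted p = 0.0264 and 0.0131). In NB-4 and MV-4-11 MALAT1 rose while the log2 fold changes of NEAT1 were 0.02 ± 0.12 and 0.06 ± 0.06 and did not pass.

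The proteins of the paraspeckle that NEAT1 builds were read beside it. All 15 genes of this list were tested in all 10 lines. Of the 150 tests 106 fell and 5 rose, where 24.4% of all gene-by-line tests fell and 27.7% rose. The median log2 fold change was -0.36 against 0.01 for all tests. RBM14, needed for paraspeckle assembly, and SFPQ, which coats NEAT1, each fell in 9 lines with medians of -0.47 and -0.46. In MOLM-13, where NEAT1 rose, all 15 fell, against 28.1% of genes tested there. In OCI-AML3, MONO-MAC-6 and KASUMI-1, where NEAT1 rose too, 12, 10 and 9 fell, against 17.7%, 30.5% and 28.6% of genes. In F-36P and MV-4-11, where NEAT1 did not pass, 14 and 13 fell, against 25% and 30.4%. In HL-60, where NEAT1 fell, 7 fell, against 15%.

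MEG3 in F-36P, the 1 line where it was tested, had 680, 638 and 650 CPM in untreated and 674, 786 and 688 CPM in treated libraries. The groups overlapped and the log2 fold change of 0.13 ± 0.10 did not pass (edgeR adjusted p = 0.31). Scaled by library size alone it was 0.37 (adjusted p = 0.0153), and with a mean of at least 5 CPM as the filter 0.28 (adjusted p = 0.0462). Its neighbours in F-36P went both ways: MEG9 fell by 1.21 ± 0.22 on the log2 scale, the log2 fold change of MEG8 was -0.37 ± 0.15 and did not pass, and the coding genes RTL1 and DLK1 rose from 0.226 ± 0.0548 to 0.747 ± 0.116 CPM and from 0.755 ± 0.0720 to 1.41 ± 0.454 CPM.

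PVT1 fell in 5 lines and rose in 2. KASUMI-1 went from 24.99, 26.2 and 26.3 CPM to 11.98, 13.4 and 12.4 CPM, a log2 fold change of -1.04 ± 0.09 (edgeR adjusted p = 1.31e-05). MONO-MAC-6 went from 9.64, 8.90 and 9.32 CPM to 4.42, 4.69 and 4.68 CPM, a log2 fold change of -1.01 ± 0.10 (edgeR adjusted p = 3.6e-06). Both were 2-fold decreases with groups far apart. F-36P fell by 0.78 ± 0.12, NOMO-1 by 0.46 ± 0.12 and MV-4-11 by 0.21 ± 0.08. The opposite held in MOLM-13, from 53.9, 52.6 and 50.6 CPM to 97.7, 87.3 and 87.7 CPM, and in OCI-AML3, from 20.9, 23.1 and 21.6 CPM to 39.8, 34.7 and 34.4 CPM. These were increases of 0.79 ± 0.07 and 0.73 ± 0.09 on the log2 scale (edgeR adjusted p = 1.36e-05 and 0.000379). HL-60, NB-4 and THP-1 had log2 fold changes of -0.14 to -0.11 and did not pass.

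The falls over 2-fold in KASUMI-1 and MONO-MAC-6 lie close to that limit, and library size alone gave -0.86 and -0.90, and -0.08 in MV-4-11 (adjusted p = 0.387). Without replicate 1 MONO-MAC-6 was at -0.96, without replicate 2 or 3 the NOMO-1 change was -0.41 (adjusted p = 0.0577) or -0.38 (adjusted p = 0.0788), and without replicate 2 or 3 the MV-4-11 change was -0.22 (adjusted p = 0.104) or -0.15 (adjusted p = 0.213).

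MYC, the transcription factor gene next to PVT1, fell in all 10 lines, with log2 fold changes from -3.75 ± 0.15 in F-36P to -0.56 ± 0.09 in HL-60. In the 2 lines where PVT1 rose, the MYC changes were -0.64 ± 0.08 in MOLM-13 and -0.82 ± 0.06 in OCI-AML3. In NB-4, however, MYC went from 683 ± 61.0 to 169 ± 16.98 CPM (log2 fold change -2.01 ± 0.10), while PVT1 was at 19.3 ± 2.67 and 17.9 ± 0.981 CPM with overlapping groups. Both genes were counted in the same libraries.

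**Figure D3:**
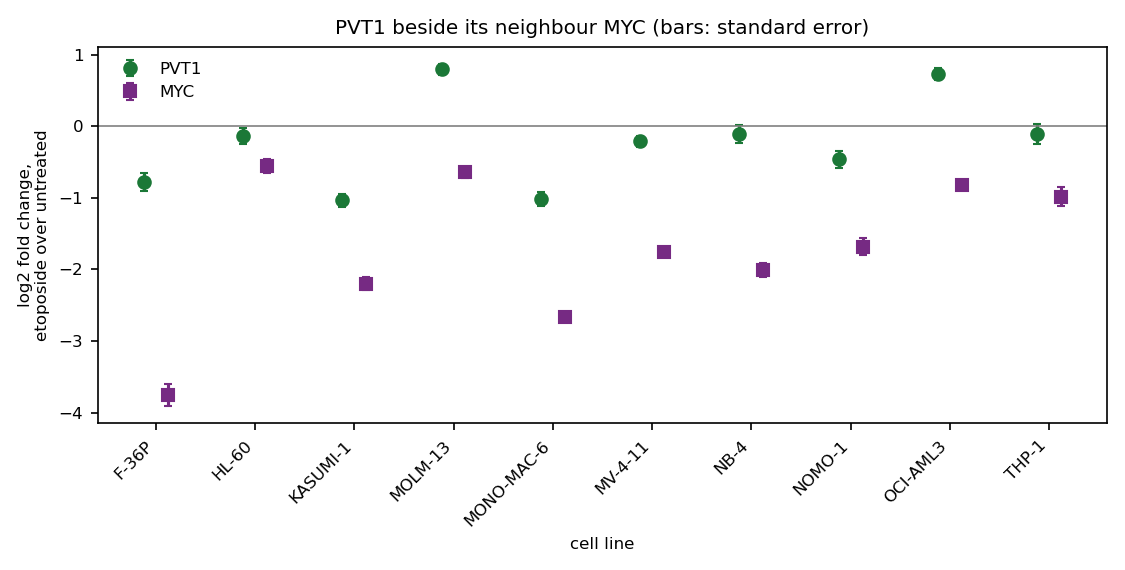
Change of PVT1 and of its neighbour MYC with etoposide. The vertical axis is the log2 fold change, etoposide over untreated, in 10 cell lines, with circles for PVT1, squares for MYC and bars for the standard error; MYC is below 0 in all 10 lines, and PVT1 is above 0 in MOLM-13 and OCI-AML3.

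The 3 snoRNA hosts rose 11 times and fell 11 times in 30 tests, 36.7% each, where 27.7% of all gene-by-line tests rose and 24.4% fell. GAS5 was higher in 5 lines and lower in 2. In NB-4 it went from 225, 260 and 294 CPM to 660, 633 and 656 CPM, 2.5-fold (log2 fold change 1.32 ± 0.10, edgeR adjusted p = 2.84e-08), with every treated library far above the untreated ones. NOMO-1 went from 232, 213 and 244 CPM to 404, 424 and 405 CPM (0.84 ± 0.08), and THP-1, HL-60 and MOLM-13 rose by 0.58 ± 0.12, 0.50 ± 0.10 and 0.48 ± 0.08. GAS5 fell by 0.40 ± 0.05 in MV-4-11 and by 0.23 ± 0.04 in MONO-MAC-6, which was -0.11 with library size alone (adjusted p = 0.0347) and did not pass in 1 fit of 60 libraries (-0.23, adjusted p = 0.0661). In KASUMI-1, the line with most GAS5, the log2 fold change was 0.01 ± 0.08. OCI-AML3 narrowly missed the threshold at 0.26 ± 0.09 (edgeR adjusted p = 0.0505), and without replicate 3 it was 0.34 (adjusted p = 0.000156), while the THP-1 rise was 0.51 without replicate 3 (adjusted p = 0.0517). Counts were taken to be by strand, and the antisense gene GAS5-AS1 had 357 reads in all libraries together.

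SNHG1 rose in 4 lines and fell in 4, with no change over 2-fold. Of the genes tested in all 10 lines, 0.434% were both higher in at least 4 and lower in at least 4, again a pattern singled out after the values were seen. It rose in NB-4, from 319, 359 and 375 CPM to 572, 559 and 584 CPM (0.70 ± 0.08, edgeR adjusted p = 4.23e-06), and by 0.54 ± 0.08 in NOMO-1, 0.46 ± 0.12 in THP-1 and 0.33 ± 0.10 in HL-60. It fell in MV-4-11, from 284, 303 and 317 CPM to 196, 185 and 168 CPM (-0.72 ± 0.06, edgeR adjusted p = 1.19e-09), in MOLM-13, from 244, 236 and 234 CPM to 158, 141 and 144 CPM (-0.69 ± 0.07), by 0.47 ± 0.12 in F-36P and by 0.16 ± 0.05 in MONO-MAC-6. MOLM-13 thus had a GAS5 rise beside a SNHG1 fall.

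Several of the smaller SNHG1 changes did not pass in every setting, and library size alone gave -0.22 in F-36P (adjusted p = 0.127) and -0.04 in MONO-MAC-6 (adjusted p = 0.449). Without replicate 1 or 3 the HL-60 change was 0.36 (adjusted p = 0.0812) or 0.24 (adjusted p = 0.238), and THP-1 was 0.42 (adjusted p = 0.106) or 0.44 (adjusted p = 0.118). F-36P without replicate 2 was -0.47 (adjusted p = 0.0831), and MONO-MAC-6 without replicate 3 was -0.15 (adjusted p = 0.146). The rises in NB-4 and NOMO-1 and the falls in MOLM-13 and MV-4-11 passed in all 10 alternatives.

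SNHG15 fell in 5 lines, 3 of them over 2-fold, and rose in 2. KASUMI-1 had the largest fall of any transcript of the set, from 166, 163 and 175 CPM to 49.9, 54.5 and 45.8 CPM, 3.36-fold lower (log2 fold change -1.75 ± 0.09, edgeR adjusted p = 6.15e-07). F-36P went from 60.2, 60.9 and 53.8 CPM to 23.2, 26.6 and 25.5 CPM (-1.21 ± 0.12, edgeR adjusted p = 2.34e-05), and MONO-MAC-6 from 82.4, 85.7 and 77.9 CPM to 39.3, 41.2 and 38.8 CPM (-1.04 ± 0.06, edgeR adjusted p = 3.83e-08). In all 3 lines no treated library came near an untreated one. MV-4-11 and NB-4 fell by 0.95 ± 0.06 and 0.92 ± 0.09, so in NB-4 SNHG15 fell from 182 ± 13.2 to 96.4 ± 9.19 CPM where GAS5 and SNHG1 rose. THP-1 went the other way, from 42.0, 36.8 and 41.8 CPM to 53.9, 68.3 and 54.0 CPM (0.55 ± 0.13, edgeR adjusted p = 0.00491), as did HL-60 (0.35 ± 0.09), whose rise was 0.35 without replicate 1 (adjusted p = 0.0606) and 0.30 without replicate 3 (adjusted p = 0.127). NOMO-1, at -0.12 ± 0.08, passed without replicate 1 (-0.19, adjusted p = 0.0466). With library size alone the falls in F-36P and MONO-MAC-6 were -0.97 and -0.93, below 2-fold.

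Of 25 other snoRNA host transcripts listed, 23 were tested in at least 1 line. Of 225 tests 103 fell (45.8%) and 33 rose (14.7%), with a median log2 fold change of -0.23. Of all gene-by-line tests 24.4% fell and 27.7% rose. SNHG4 fell in all 10 lines, over 2-fold in 7, with a median of -1.66, and SNHG10 fell in 9, over 2-fold in 6, with a median of -1.20. NB-4, in which GAS5 and SNHG1 rose, had the highest median of this list, 0.34, with 10 of 22 higher and 8 lower, where 31% of all genes tested in NB-4 rose and 28.7% fell. F-36P had the lowest, -0.64, with 1 of 23 higher and 13 lower, against 35% and 25% of genes in F-36P. Genes of the protein complex that binds box C/D snoRNAs, the class that GAS5 and SNHG1 carry, fell in 73 of 100 tests. They rose in 1, with a median of -0.51. NUFIP1 and RUVBL2, which assemble that complex, fell in 10 and 9 lines with medians of -0.79 and -0.71. Nonsense-mediated decay factors fell in 36 of 100 tests and rose in 10. UPF3B, which links the decay machinery to spliced mRNA, was higher in 5 lines and lower in 2, with log2 fold changes from -0.79 to 1.19, and SMG1, the kinase of the pathway, fell in 3 lines with a median of -0.33.

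**Figure D4:**
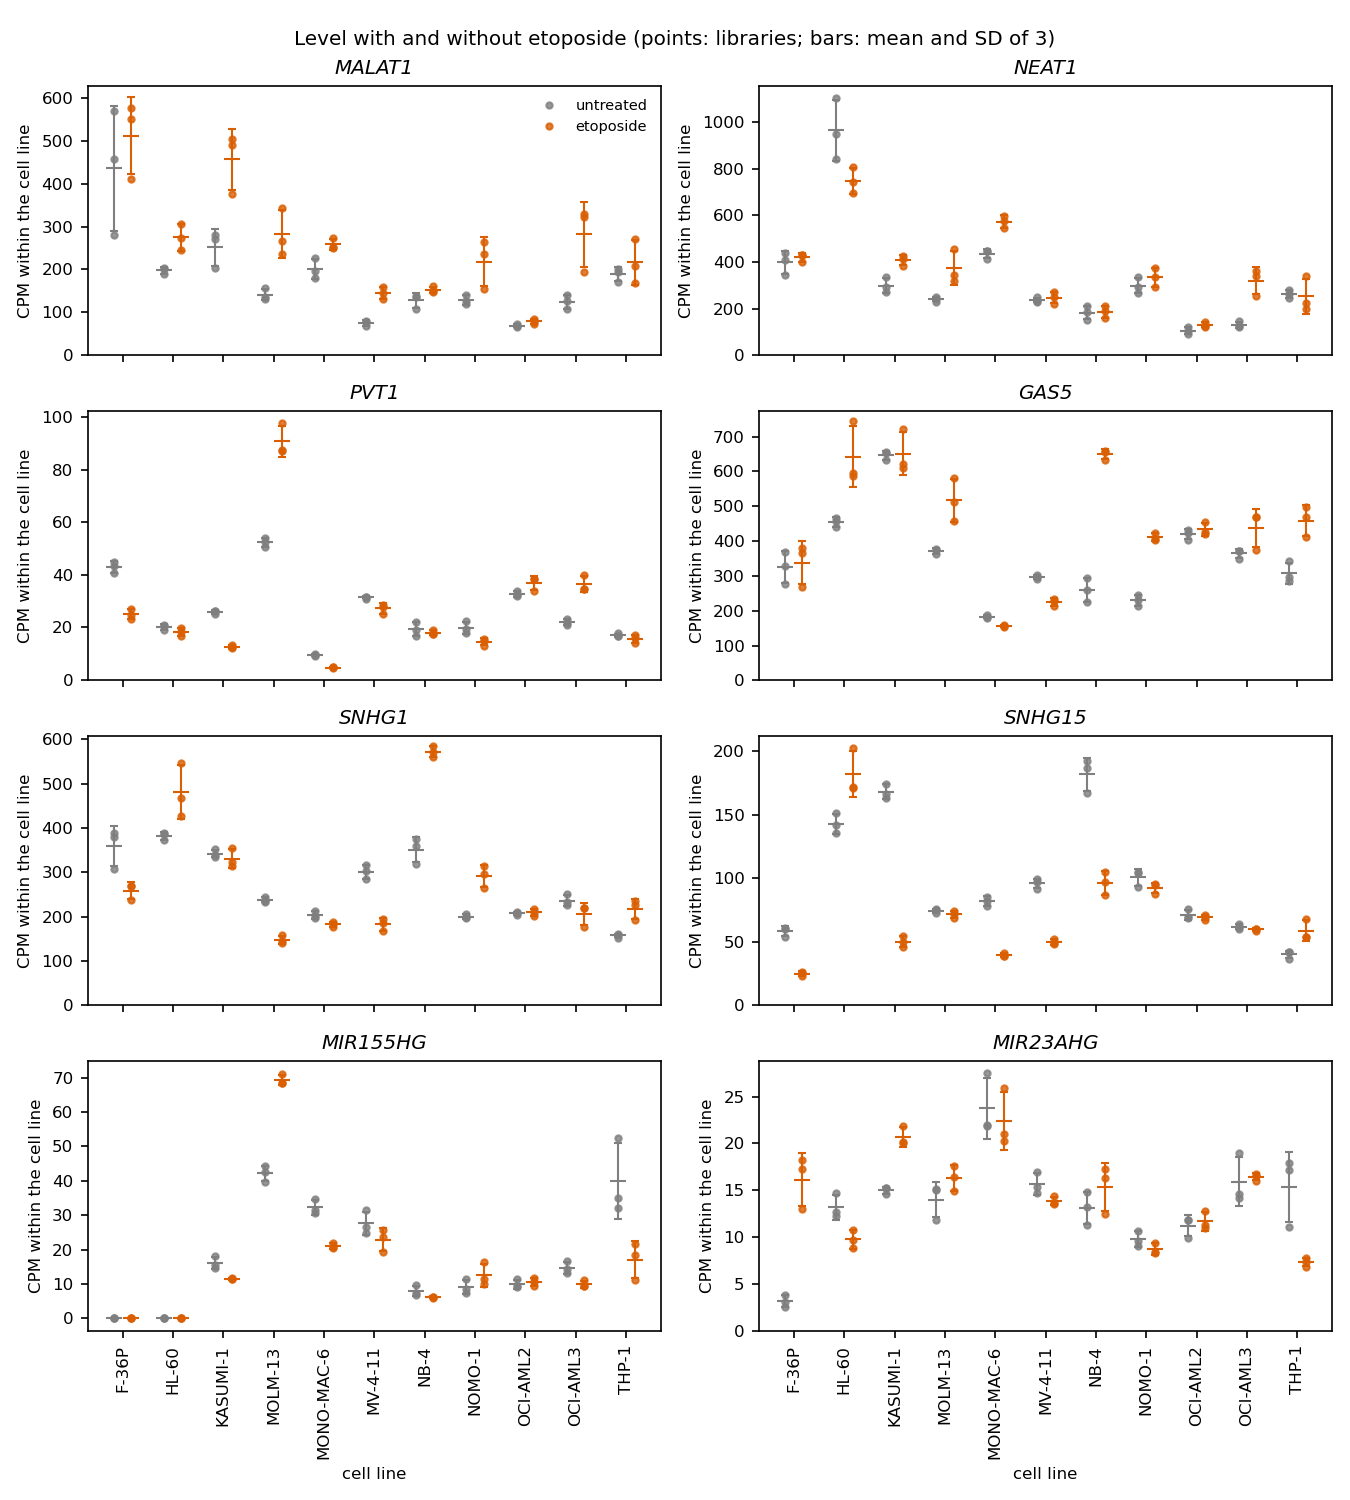
Levels of 8 transcripts with and without etoposide in 11 cell lines. The vertical axis is CPM scaled within each line (linear), points are libraries, grey untreated and orange etoposide, and bars give the mean and SD of 3 libraries; GAS5 and SNHG1 are far higher after etoposide in NB-4, SNHG15 is far lower in KASUMI-1, and MIR23AHG rises from its lowest basal level in F-36P.

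MIR155HG, host of miR-155, a microRNA of activated immune cells, was tested in 8 lines, of which it fell in 6 and rose in 1. THP-1 changed most, from 32.1, 52.6 and 34.9 CPM to 18.5, 11.2 and 21.6 CPM, 2.33-fold lower (log2 fold change -1.22 ± 0.21, edgeR adjusted p = 0.000265). The groups did not overlap, but replicate 2 held both the highest untreated and the lowest treated value, and without it the change was -0.71. MONO-MAC-6 fell by 0.62 ± 0.07, OCI-AML3 by 0.57 ± 0.12, KASUMI-1 by 0.47 ± 0.11, NB-4 by 0.39 ± 0.15 and MV-4-11, where groups overlapped, by 0.27 ± 0.10. In MOLM-13, its highest basal line, it rose from 39.8, 42.7 and 44.2 CPM to 68.4, 71.1 and 68.5 CPM (0.72 ± 0.07, edgeR adjusted p = 2.21e-05). NOMO-1 had 0.47 ± 0.20, with overlapping groups (edgeR adjusted p = 0.0624), and without replicate 1 it was 0.76 (adjusted p = 0.00214). F-36P held 5 reads over its 3 treated libraries and HL-60 none, so the transcript remained at or near 0 in both.

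Among the smaller MIR155HG falls, NB-4 did not pass with any 1 replicate left out (-0.44, -0.45 and -0.26 without replicates 1, 2 and 3, adjusted p = 0.068, 0.0732 and 0.257), nor by DESeq2 (-0.40, adjusted p = 0.0579). MV-4-11 did not pass without replicate 2 (-0.20, adjusted p = 0.23) or 3 (-0.18, adjusted p = 0.126), OCI-AML3 without replicate 2 (-0.43, adjusted p = 0.0901) or KASUMI-1 without replicate 3 (-0.40, adjusted p = 0.0511).

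MIR23AHG, host of miR-23a, miR-27a and miR-24-2, rose in 2 lines and fell in 2. F-36P, where it was lowest before treatment, went from 3.78, 3.07 and 2.505 CPM to 13.0, 17.3 and 18.2 CPM, a 5.17-fold rise that is the largest change in the set (log2 fold change 2.37 ± 0.20, edgeR adjusted p = 9.13e-06). The underlying counts were 67, 53 and 45 reads in untreated and 275, 342 and 377 in treated libraries. KASUMI-1 rose by 0.46 ± 0.09. THP-1 fell from 17.9, 11.1 and 17.1 CPM to 7.38, 7.74 and 6.85 CPM (-1.07 ± 0.18, edgeR adjusted p = 0.000199), with no overlap, and was at -0.95 without replicate 1 and -0.91 without replicate 3. HL-60 was at -0.44 ± 0.14 (edgeR adjusted p = 0.0259) and did not pass without replicate 1, 2 or 3 (-0.42, -0.42 and -0.46, adjusted p = 0.101, 0.0618 and 0.107). In the other 6 lines log2 fold changes lay between -0.18 and 0.23 and did not pass, although NB-4 did with library size alone (0.43, adjusted p = 0.0199). In THP-1 MIR155HG and MIR23AHG both fell over 2-fold, which occurred in no other line.

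Of 28 other microRNA host transcripts, 24 were tested in at least 1 line. Of 154 tests 65 fell (42.2%) and 30 rose (19.5%), with a median of -0.27. Of all gene-by-line tests 24.4% fell and 27.7% rose. MIR17HG, host of the miR-17-92 cluster, fell in all 10 lines, over 2-fold in 7, and by 2.22 ± 0.14 on the log2 scale in NB-4. MIR3142HG, host of miR-146a, rose in 6 of the 7 lines where it was tested and fell in NB-4, from 13.1 ± 2.07 to 6.35 ± 0.802 CPM, while MONO-MAC-6 went from 0.684 ± 0.117 to 6.06 ± 0.538 CPM. Genes of microRNA processing fell in 62 of 159 tests (39.0%) and rose in 13 (8.18%), with a median of -0.17. XPO5, the exporter of microRNA precursors, fell in 8 lines, and AGO2, the microRNA-binding endonuclease, in 5.

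The remaining lists were read for context, beside the 27.7% of all gene-by-line tests that rose and the 24.4% that fell. Of 10 long noncoding RNAs linked to p53, 5 were tested in at least 1 line. They rose in 18 of 36 tests (50%), with 2 falls (5.56%) and a median of 0.49. LINC-PINT rose in 6 lines and LNCTAM34A, which starts beside the miR-34a locus, in 4 of 5. Genes next to the 10 transcripts rose in 52 of 141 tests (36.9%) and fell in 44 (31.2%). LTBP3, near MALAT1 on chromosome 11, rose in 8 lines, over 2-fold in 6, with a median of 1.05. Mitochondrially encoded mRNAs rose in 43 of 130 tests (33.1%) and fell in 30 (23.1%), near the shares of all tests. MT-ND6 was lower in 4 lines and higher in 1, and MT-ATP8 lower in 4 and higher in 2.

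**Figure D5:**
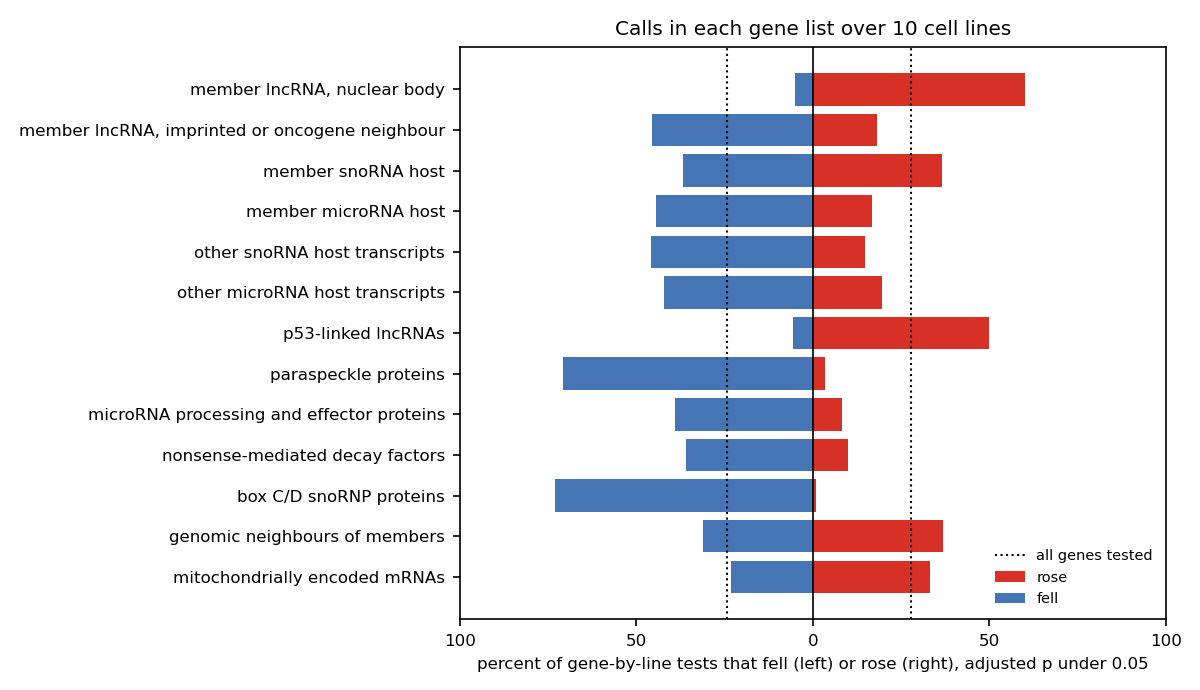
Share of gene-by-line tests that rose or fell in each gene list over 10 cell lines. Bars give the percent of tests with an adjusted p below 0.05, red to the right for rises and blue to the left for falls, and dotted lines mark all genes tested (27.7% and 24.4%); the nuclear-body transcripts NEAT1 and MALAT1 lean to rises, and paraspeckle and box C/D snoRNP proteins lean to falls.

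Line by line, the balance differed. In F-36P 1 of 8 tested transcripts rose and 3 fell, where 35% of all genes tested there rose and 25% fell. HL-60 had 4 of 7 higher and 2 lower, against 17.5% and 15% of genes. KASUMI-1 had 3 of 8 higher and 3 lower, against 31.5% and 28.6%. MOLM-13 had 5 higher and 1 lower, against 28.1% and 28.1%. In MONO-MAC-6 2 rose and 5 fell, against 31.8% and 30.5%. MV-4-11 had 1 higher, MALAT1, and 5 lower, against 33.5% and 30.4%. NB-4 had 3 higher and 2 lower, against 31% and 28.7%, and NOMO-1 had 3 higher and 1 lower, against 28.8% and 23.9%. OCI-AML3 had 3 higher and 1 lower, against 22.4% and 17.7%, and THP-1 had 3 higher and 2 lower, against 16.1% and 16%. With 7 or 8 transcripts per line these counts are a description.

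Whether the etoposide change differed between the 10 lines was tested in 1 fit of 60 libraries with an interaction term. Of 9 transcripts, 8 passed, all but MEG3, where 74.5% of all 19974 genes passed. MEG3 had at most 4 reads in any library outside F-36P, so its test could not show a difference between lines. MIR155HG had no read in any untreated library of F-36P or HL-60, so its test rests on the other lines. SNHG15 had an adjusted p of 2.54e-24 (edgeR interaction F-test), with lines from -1.75 to 0.55 on the log2 scale. PVT1 had 9.63e-20, SNHG1 1.28e-17, MIR23AHG 4.66e-16, GAS5 5.36e-15, MIR155HG 4.55e-08 and NEAT1 9.995e-09 in the same test. MALAT1, at 0.000957, was the least variable of the 8, and without replicate 2 it did not pass (adjusted p = 0.0731). Lines were treated at different concentrations, highest in F-36P, then KASUMI-1 and MONO-MAC-6, so line and concentration cannot be told apart.

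In OCI-AML2 none of the 8 tested transcripts passed (edgeR, adjusted p), and 0.0221% of the 13604 genes did. Unadjusted p was below 0.05 for 3 of the 8, and DESeq2 passed none. NEAT1 was at 92.3, 102 and 120 CPM in untreated and 121, 127 and 143 CPM in treated libraries, a log2 fold change of 0.32 ± 0.09 (edgeR adjusted p = 0.998), and the treated libraries were narrowly the higher. MALAT1 had 0.19 ± 0.07 and PVT1 0.18 ± 0.07, and the others lay between -0.04 and 0.08. NEAT1 did pass with the replicate number as a block (adjusted p = 0.00875), without the filter on low counts (0.31, adjusted p = 0.000389) and without replicate 3 (0.35, adjusted p = 0.00415), and MALAT1 without replicate 3 (0.28, adjusted p = 0.0428).

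For each transcript tested in at least 8 lines, the genes with the most similar pattern of log2 fold changes over the lines were looked up among 9392 named genes, by Pearson's r over 10 lines (8 for MIR155HG), as a description of values from shared libraries. NEAT1 was most like ZMAT3 (r = 0.94), ANKRA2 (0.92) and TSPYL1 (0.92), and MALAT1 like CHML (0.93), CCDC61 (0.92) and HIBADH (0.91). PVT1 was most like NTPCR (0.96), WDR59 (0.96) and GSTK1 (0.95). GAS5 was most like RFX3 (0.95), CCNB1IP1 (0.94) and MRPS33 (0.92), SNHG1 like POLR3C (0.97), NSRP1 (0.94) and SUCLG1 (0.94), and SNHG15 like RRP12 (0.97), ZNF202 (0.97) and DCUN1D5 (0.96). MIR155HG was most like PFDN5 (0.97), RPS27 (0.96) and ADGRE5 (0.94), and MIR23AHG like FCHSD1 (0.98), SLC16A5 (0.96) and CXCR2 (0.95). The r of MIR23AHG rests largely on F-36P, at 2.37 on the log2 scale against 0.46 in the next line. What r the best of 9392 genes would reach by chance was not tested.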

How the data were processed

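According to the methods, the authors mapped reads with STAR 2.5.3a to GRCh38.p7 with gencode 25, having checked them with FastQC 0.11.5, and the deposited values are raw counts of reads per gene, 1 column per library without normalization. Of 756 genes wholly inside an exon of the other strand in gencode 44, 484 have reads, so the column was taken to count by strand. Whether these genes lie so in gencode 25, used for the counting, was not checked. Symbols and positions came from gencode 44 by identifier, for 56948 of 57992 genes, after 45 empty copies on chromosome Y were left out.

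CPM, fold changes and p-values were computed here in R 4.3.3 with edgeR 4.0.16 (filterByExpr, minimum count 10 and minimum total 15, TMM, quasi-likelihood test, Benjamini-Hochberg adjustment), with DESeq2 1.42.0 as an alternative, and figures in Python 3.11.15 with matplotlib 3.10.9. On simulated counts the edgeR step recovered 200 of 200 changed genes among 13998 with 1 false call. The interaction step recovered 188 of 200 among 19974 with 9 false calls, and the basal step 200 of 200 among 18130 with 6. All changes put in were over 2-fold, in genes above a minimum of reads, with the same dispersion for every gene. Recovery of smaller changes, which most rises and falls here are, was not tested. No 2 libraries of a group agreed within sampling noise (chi-square per degree of freedom at least 2.05). Replicate numbers were taken to pair the libraries in MOLM-13 and NB-4. There, once group means were taken off, every pair of libraries with the same number had an r above 0.1 across genes (lowest 0.148). The limit of 0.1 was set here, and OCI-AML2 just missed it (lowest r 0.0973). In other lines single values ran from -0.441 in F-36P to 0.448 in KASUMI-1, so the labels leave pairing unsettled.

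The transcripts and lists were chosen with earlier results of these data known. All 10 transcripts are named in every line, and from each list the 2 genes changed over 2-fold in the most lines, ties going to the larger median change. SNHG1 and MALAT1 patterns over lines, MEG3's neighbours and KASUMI-1 as a high line were singled out after values were seen.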

Additional observations from a re-analysis of the deposited data

Results flagged for a closer look

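The change of MIR23AHG in F-36P, a log2 fold change of 2.37, stood far from the other 9 lines, of which the highest was KASUMI-1 at 0.46. The gap was 0.554 of the whole range over 10 lines. It was the only 1 of 16 ends looked at in 8 transcripts to stand so far out, and chance alone gives about 1 such value in 20 groups.

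The etoposide change differed between lines by the edgeR interaction F-test for GAS5 (adjusted p = 5.36e-15), SNHG15 (2.54e-24), PVT1 (9.63e-20), SNHG1 (1.28e-17), NEAT1 (9.995e-09), MALAT1 (0.000957), MIR23AHG (4.66e-16) and MIR155HG (4.55e-08).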

How the results depend on the processing

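Of the 53 rises and falls, 53 kept their direction in all 10 alternatives and 36 also their adjusted p below 0.05, 22 of them rises and 14 falls; 43 held in the 7 other fits and 38 with each replicate left out of both groups. No fold change minimum gave 28 rises and 25 falls in place of 4 and 7 over 2-fold. Library size alone gave 3 falls over 2-fold, with a median log2 fold change of all genes of 0.34 in F-36P, 0.21 in NB-4, 0.20 in KASUMI-1, 0.14 in MV-4-11 and 0.13 in MONO-MAC-6 (0.09, 0.01, 0.03, 0.01 and 0.01 with TMM), and 64.7% of all calls were rises (53.1% with TMM). In 1 fit of 60 libraries the median was 0.28 in F-36P and 0.23 in KASUMI-1. Leaving out replicates gave 4 to 5 rises and 5 to 6 falls over 2-fold. The replicate block gave 4 and 7 and changed no call in MOLM-13 and NB-4, the lines taken as paired. It changed the NEAT1 call in OCI-AML2, a line just short of the pairing limit (lowest r 0.0973). Whether the numbers pair libraries there was not settled. Rises over 2-fold numbered 4 to 6 in the other fits, and MALAT1 in MOLM-13, just below that limit, ranged from 0.80 to 1.12. Transcripts that differed between lines numbered 7 to 8 with a replicate left out and those differing in basal level 8 without F-36P, where MEG3 was not tested. MIR22HG, and MIR155HG in F-36P and HL-60, had too few reads for a test, and the cause was not tested.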
